A study of Mus musculus with 3 samples.

Results

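Muscle ubiquitin ligases were examined in the gastrocnemius (calf) muscle of mice after a growth signal was switched on. The set held 10 genes: Fbxo32, Trim63, Trim54, Trim55, Fbxo30, Fbxo21, Fbxo31, Nedd4, Traf6 and Stub1. Every probe set that the platform annotation assigns to one of these symbols was taken, which gave 23 probe sets of 9 genes, of 45037 probe sets and 18193 named genes in all. Trim55, which encodes MuRF2, had no probe set in the annotation used and was not analysed here. No probe set was shared with another gene, and Trim63 and Trim54 had 1 probe set each.

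All mice were of the C57BL/CD1 strain and carried, per the labels, a skeletal muscle transgene that joins the kinase Akt to an oestrogen-binding domain; the genotype label reads Akt_Cre transgenic. By the same source, tamoxifen stabilises the fusion and muscle hypertrophy follows. One group received oil and was sampled after 24 h, and 2 groups received tamoxifen and were sampled after 24 h or 48 h. Each group was 1 Affymetrix Mouse 430 2.0 array, hybridised with RNA pooled from 3 to 4 mice. The ages, the promoter that drives the transgene and the number of transgenic lines are not given in the sources used here.

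There was 1 array per group, so no value has a replicate error, no test between groups was possible and no p-value is given. "Higher" and "lower" as a call mean at least 2-fold. Neither oil-treated mice at 48 h nor tamoxifen-treated mice lacking the fusion were analysed, so time, tamoxifen itself and Akt cannot be told apart at 48 h, nor tamoxifen and Akt at 24 h. Both comparisons with oil share the single oil array.

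A ubiquitin ligase is the last enzyme of a relay. An activating enzyme (E1) charges ubiquitin, a conjugating enzyme (E2) carries it, and the ligase (E3) places it on a chosen protein, which often sends that protein to the proteasome. Atrogin-1, encoded by Fbxo32, is an F-box protein, the part that picks the substrate in a cullin complex. MuRF1, MuRF2 and MuRF3, encoded by Trim63, Trim55 and Trim54, are RING-finger proteins of the sarcomere. Fbxo32 and Trim63 are the classic atrophy ligases: their transcripts go up in fasting, denervation and glucocorticoid excess, and FoxO transcription factors, which Akt holds out of the nucleus, are known activators of both.

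Of the 9 measured genes, 2 were lower on the tamoxifen 24 h array, Fbxo32 and Trim63, against 2.48% of all 11092 genes compared. None was higher, against 2.35% of all genes. At 48 h Fbxo32 alone was lower, against 2.71% of all genes, and none was higher, against 3.72%. The other 7 genes stayed within 2-fold of oil on all of their 16 kept probe sets at both times. A probe set was kept if the mean of its 3 percentile ranks reached 0.5, and 20 of the 23 were kept. Of these 20, 4 were lower at 24 h (4.99% of all kept probe sets were) and 3 at 48 h (3.28%), and none was higher (2.33% and 3.86% of all). Fbxo32 was thus lower at both times, as were 0.721% of all genes. The 3 probe sets that were not kept all belong to Traf6, so the statements on kept probe sets do not cover every member probe set.

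**Figure D1:**
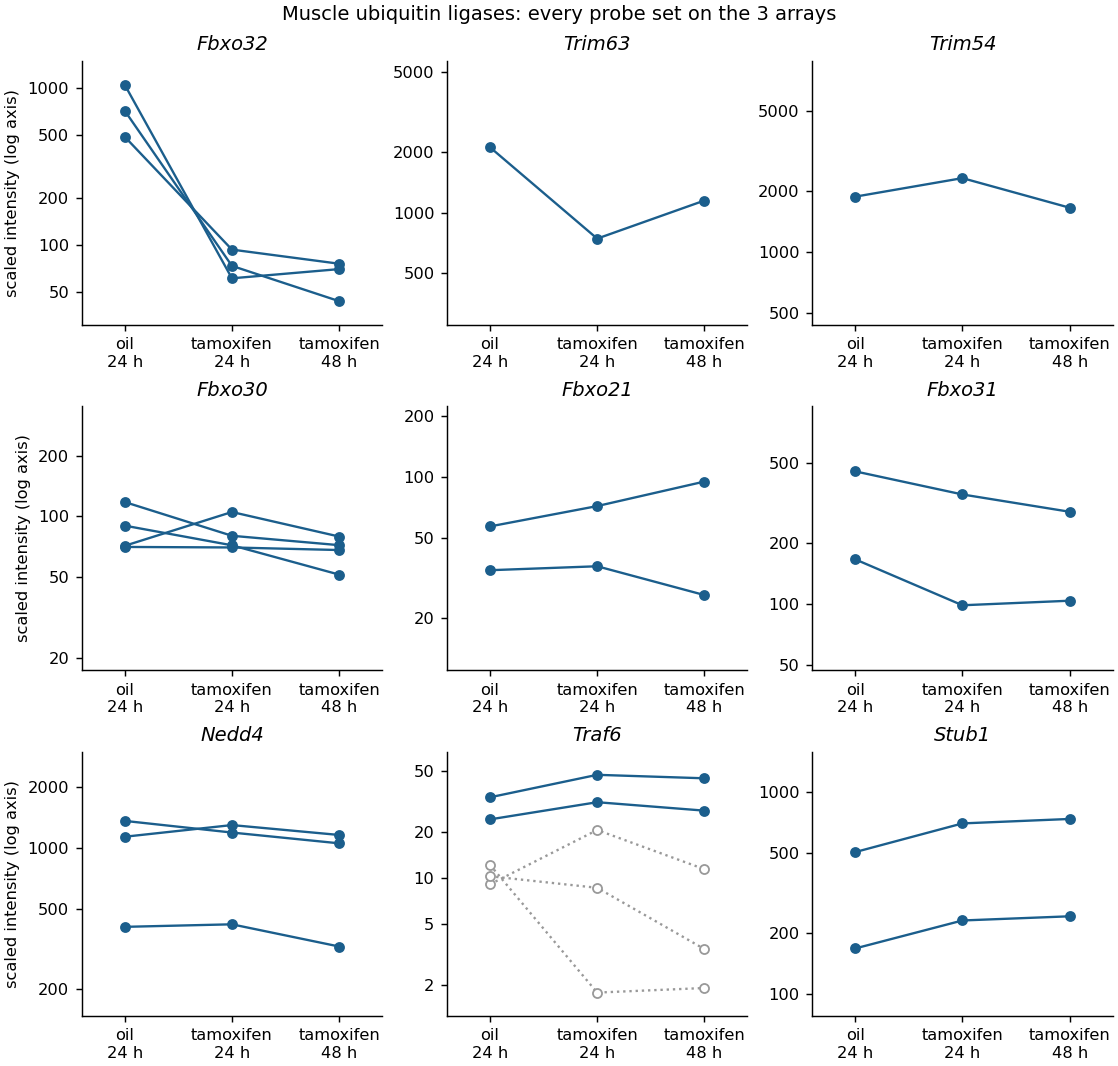
Scaled intensity (log axis) of each of the 23 probe sets on the oil 24 h, tamoxifen 24 h and tamoxifen 48 h arrays, 1 panel per gene with its own axis range and 1 line per probe set; dotted grey lines are the 3 Traf6 probe sets below the filter. The 3 Fbxo32 lines drop from between 489.7 and 1051 to below 100 on both tamoxifen arrays, and Trim63 is lowest at 24 h.

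Fbxo32 (Entrez 67731; GRCm38.p6 chromosome 15, 58175879 to 58214892) is the F-box ligase whose known substrates include the translation factor subunit eIF3f and MyoD. Its probe set 1448747_at read a scaled intensity of 1051 on oil, 61.2 on tamoxifen 24 h and 70.1 on tamoxifen 48 h. Probe set 1417522_at read 718, 73.5 and 43.75 in the same order. Probe set 1435265_at read 489.7, 93.3 and 75.8. In each probe set the oil array was the high one and both tamoxifen readings were under 100.

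Against oil at 24 h, the readings were 17.2-fold, 9.78-fold and 5.25-fold lower, at log2 ratios of -4.10, -3.29 and -2.39. At 48 h they were 15.01-fold, 16.4-fold and 6.46-fold lower, at log2 ratios of -3.91, -4.04 and -2.69. The size therefore depends on the probe set. The gene reading used for counts, the kept probe set of highest mean rank, was 1435265_at, which gave the smallest fold of the 3 at both times; the median over the 3 probe sets was -3.29 at 24 h and -3.91 at 48 h in log2. The Fbxo32 probe sets spread over 1.71 at 24 h and 1.35 at 48 h in log2. Over 5001 genes with several kept probe sets, the median spread was 0.50 and 0.44 and the 95th percentile 1.64 and 1.40. A spread from lowest to highest tends to grow with the number of probe sets, and these genes were not limited to those with 3.

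The Fbxo32 readings lay at the low edge of the arrays. For 1448747_at, 2 of 21804 kept probe sets, itself included, had a 24 h ratio as low or lower, and 5 had such a ratio at 48 h. For 1417522_at these numbers were 15 and 3, and for 1435265_at they were 51 and 11. Of 2032 genes with 3 or more kept probe sets, 2 had all of them at least 2-fold lower at 24 h, Fbxo32 and Clip1. At 48 h 4 did, namely Fbxo32, Tspan8, Fmo2 and Ecrg4. Fbxo32 was the 1 gene among the 2032 with all kept probe sets at least 4-fold lower at 24 h, and again at 48 h.

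For Fbxo32 the tamoxifen arrays were within 2-fold of each other. The log2 ratios of 48 h to 24 h were 0.20 for 1448747_at, -0.75 for 1417522_at and -0.30 for 1435265_at, so the probe sets did not share a direction.

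**Figure D2:**
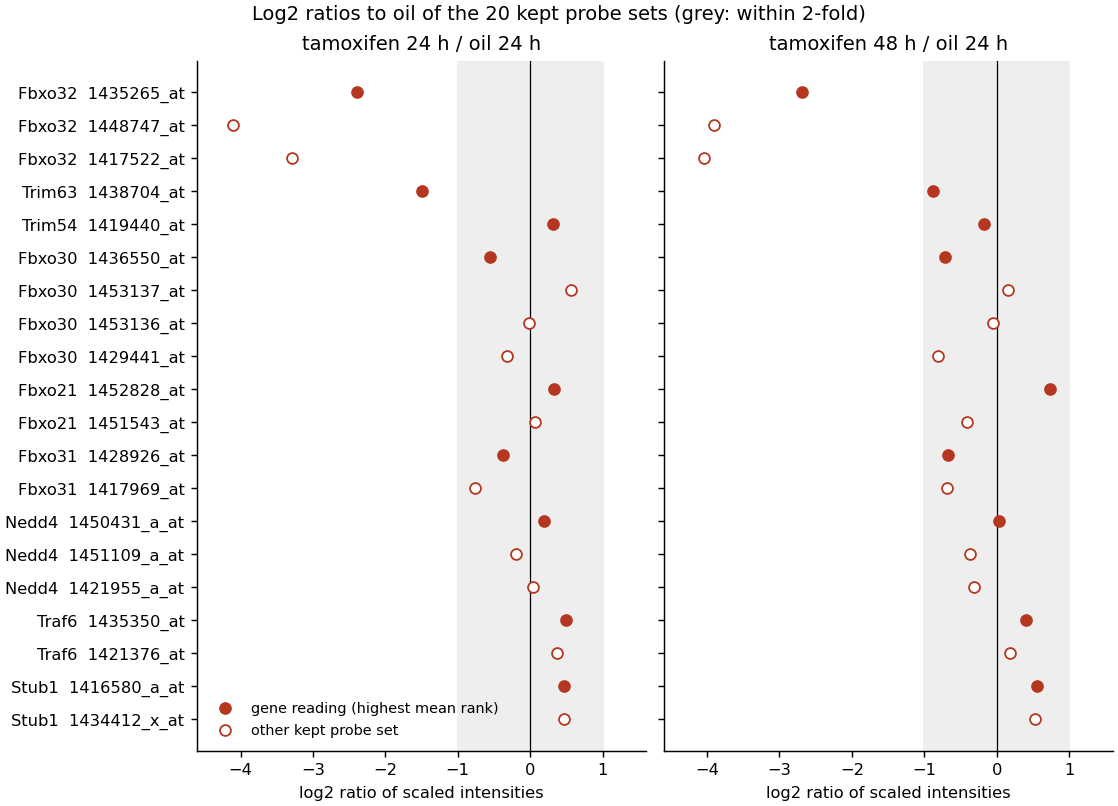
Log2 ratio of scaled intensity to the oil 24 h array for the 20 kept probe sets, at tamoxifen 24 h (left) and 48 h (right); filled points are the probe set used as the gene reading, open points the others, and the grey band is within 2-fold. The 3 Fbxo32 points lie at -2.39 or lower in both panels, Trim63 is outside the band at 24 h (-1.50) and inside it at 48 h (-0.88), and all other points are inside.

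Trim63 (Entrez 433766; chromosome 4, 134315120 to 134329629) encodes MuRF1, which binds titin and is known to mark thick-filament proteins for breakdown. Its single probe set, 1438704_at, read 2111 on oil, 744 on tamoxifen 24 h and 1149 on tamoxifen 48 h. The oil array was the highest and the 24 h array the lowest. The reading was 2.84-fold lower than oil at 24 h (log2 ratio -1.50) and 1.84-fold lower at 48 h (-0.88), and the 48 h array read 1.54-fold above the 24 h array (0.63), within 2-fold. For the 24 h ratio, 336 of 21804 kept probe sets (1.54%) were as low or lower, and for the 48 h ratio 1089 (4.99%) were. With 1 probe set there is no second reading of Trim63 on these arrays.

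Trim54 (chromosome 5, 31116612 to 31137626) encodes MuRF3, a relative of MuRF1 that binds microtubules. Its single probe set read 1878 on oil, 2321 on tamoxifen 24 h and 1655 on tamoxifen 48 h. The 24 h array was the highest of the 3, where Trim63 was at its lowest, and the log2 ratios were 0.31 and -0.18 against oil and -0.49 for 48 h against 24 h, all within 2-fold. Whether the Trim63 and Trim54 probes also detect each other's transcripts, or that of Trim55, was not tested.

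The gene starts of these relatives are shown because their readings differed at 24 h and because FoxO and the glucocorticoid receptor are known regulators of Trim63. The sequences are from RefSeq (GRCm38.p6), 250 bases before to 50 after the start, 5′ to 3′ on the plus strand. Trim63 is chr4:134314870-134315169 and Trim54 is chr5:31116362-31116661. Capitals mark matches on either strand to the FoxO core GTAAACA and to the hexamer AGAACA of glucocorticoid response elements.
Trim63: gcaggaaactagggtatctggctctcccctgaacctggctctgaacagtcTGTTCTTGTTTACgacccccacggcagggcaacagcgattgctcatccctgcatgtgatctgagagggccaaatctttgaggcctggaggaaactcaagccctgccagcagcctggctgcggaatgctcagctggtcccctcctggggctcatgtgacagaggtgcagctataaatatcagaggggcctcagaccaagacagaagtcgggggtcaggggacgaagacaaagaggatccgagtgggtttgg
Trim54: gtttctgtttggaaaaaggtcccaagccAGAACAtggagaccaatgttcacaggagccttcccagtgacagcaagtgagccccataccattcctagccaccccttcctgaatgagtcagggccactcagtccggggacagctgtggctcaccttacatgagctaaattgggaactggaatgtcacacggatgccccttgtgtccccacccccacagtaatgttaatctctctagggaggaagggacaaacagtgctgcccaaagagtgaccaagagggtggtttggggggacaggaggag

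The Trim63 window held 1 match to each motif, both as the reverse complement and side by side: TGTTCT at position -200 and TGTTTAC at position -194 from the gene start. The Trim54 window held the hexamer at -222 and no match to the FoxO core. Of 32851 promoter windows in the table, 3.65% held GTAAACA on either strand and 19.0% held AGAACA. The table held 9 windows for 8 of the 10 genes. Trim63 was the 1 gene of these 8 with the FoxO core; the hexamer was also found in 1 of the 2 Nedd4 windows. The E-box CANNTG, the site of myogenic factors such as myogenin, was present in 72.3% of all windows, 3 times in that of Trim63 and 2 times in that of Trim54. A match is a run of letters and not a measured binding site. Fbxo32 and Trim55 had no entry.

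The remaining F-box members are substrate-picking subunits like atrogin-1. Fbxo30 (MUSA1; chromosome 10, 11281330 to 11305750) is an atrophy ligase known to be restrained by BMP signalling. Its 4 probe sets did not go together. Probe set 1436550_at read 118 on oil, 80.2 on tamoxifen 24 h and 72.1 on tamoxifen 48 h, and 1429441_at read 90.05, 72.0 and 51.5, both with oil highest. Probe set 1453137_at read 71.5, 105.2 and 79.5, with the 24 h array highest, and 1453136_at was level at 70.6, 70.2 and 68.2. The log2 ratios spanned -0.56 to 0.56 at 24 h and -0.81 to 0.15 at 48 h, so no direction can be given for the gene; all 4 probe sets were below 0 for 48 h against 24 h, at -0.48 to -0.04.

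Fbxo31 (chromosome 8, 121549443 to 121578864), an F-box protein known from cell cycle control, read lower than oil on both probe sets at both times, within 2-fold. Probe set 1428926_at read 454.5 on oil, 349 on tamoxifen 24 h and 287 on tamoxifen 48 h. Probe set 1417969_at read 167, 98.6 and 103.9. The oil array was the highest in both, and the log2 ratios were -0.38 and -0.76 at 24 h and -0.67 and -0.68 at 48 h. These 48 h ratios lie at 9.48% and 9.08% of the kept probe sets, counted from the lowest.

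Fbxo21 (chromosome 5, 117976770 to 118010198), known in muscle as SMART and described as a FoxO-dependent atrophy gene, had probe sets that disagreed. Probe set 1452828_at read 56.8, 71.7 and 94.8, highest at 48 h (log2 ratios to oil 0.33 and 0.74). Probe set 1451543_at read 34.5, 36.1 and 26.0, lowest at 48 h (0.07 and -0.41). The gene therefore has no direction of its own at 48 h.

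Nedd4 (chromosome 9, 72662331 to 72749851) encodes a ligase of the HECT class. Its probe set 1450431_a_at read 1135 on oil, 1296 on tamoxifen 24 h and 1158 on tamoxifen 48 h, 1451109_a_at read 1360, 1190.3 and 1053, and 1421955_a_at read 406, 418 and 324. The log2 ratios lay between -0.19 and 0.19 at 24 h and between -0.37 and 0.03 at 48 h, and all 3 probe sets read lower at 48 h than at 24 h, by log2 ratios of -0.16 to -0.37.

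Stub1 (chromosome 17, 25830634 to 25832919) encodes CHIP, a U-box ligase that works with heat shock chaperones on misfolded proteins. Its probe set 1416580_a_at read 505 on oil, 700.0 on tamoxifen 24 h and 736.5 on tamoxifen 48 h, and 1434412_x_at read 168, 231 and 243. Oil was the lowest array in both, and the ratios nearly coincided: 0.47 and 0.46 in log2 at 24 h, 0.55 and 0.53 at 48 h. About 14% of kept probe sets had ratios as high or higher (14.2% and 14.8% at 24 h). The suffix x in the second name marks a probe set that may also detect other sequences.

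Traf6 (chromosome 2, 101678420 to 101701668) encodes a RING ligase and adaptor of interleukin-1 and Toll-like receptor signalling, and its loss in muscle is known to blunt wasting. Its probe sets were dim. Probe set 1435350_at read 33.8, 47.5 and 45.1, and 1421376_at read 24.25, 31.4 and 27.7, with oil lowest in both (log2 ratios to oil of 0.49 and 0.37 at 24 h and 0.41 and 0.19 at 48 h). The 3 probe sets below the filter gave no common picture: 1421377_at, just below it with a mean rank of 0.473, read 9.10, 20.7 and 11.4, 1443288_at (0.352) read 10.3, 8.63 and 3.42, and 1446940_at (0.261) read 12.2, 1.78 and 1.90. Readings under the floor of 4.05 have no order. The kept member probe set nearest the filter was 1421376_at, with a mean rank of 0.617.

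**Figure D3:**
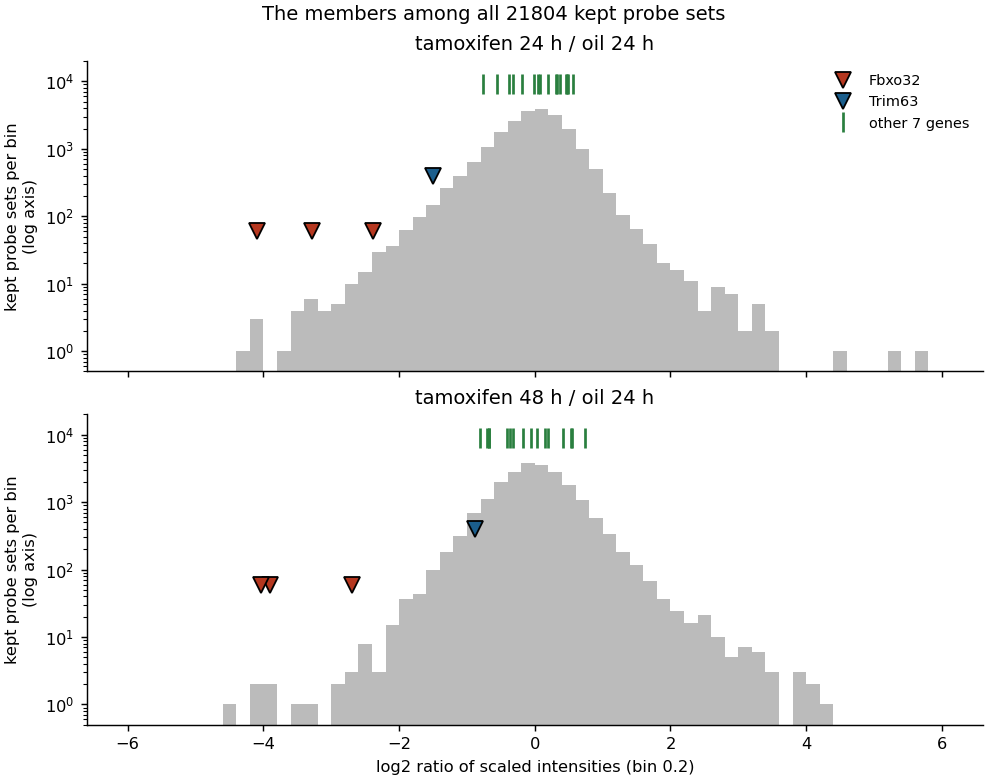
Histogram of log2 ratios to oil of all 21804 kept probe sets (log count axis, bins of 0.2) at tamoxifen 24 h (top) and 48 h (bottom); triangles mark Fbxo32 and Trim63 and green ticks the 16 kept probe sets of the other 7 genes, at heights chosen for legibility. The Fbxo32 triangles stand in the far lower tail in both panels, Trim63 lies on the lower flank, and the ticks fall between -0.81 and 0.74.

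Taken over the list, the members did not move as a block. The median log2 ratio of the 9 gene readings was 0.19 at 24 h, against 0.04 for all genes, and -0.18 at 48 h, against 0.01. Of the 20 kept probe sets, 10 were below 0 and 10 above at 24 h, and 13 were below and 7 above at 48 h. For tamoxifen 48 h against 24 h, 14 were below and 6 above 0 and no gene or kept probe set passed 2-fold, where 1.42% of all genes were lower and 1.8% higher, and 1.55% and 3.9% of all kept probe sets. The sign was the same under 4 ways of scaling the arrays for 18 of 20 kept probe sets at 24 h, 19 at 48 h and 17 between the tamoxifen arrays. The exceptions all had main log2 ratios between -0.01 and 0.07: in the comparisons with oil they were 1 probe set of Fbxo30 and 2 of Nedd4, and between the tamoxifen arrays 1 of Fbxo31 and both of Stub1. Without scaling, the median of all genes shifted to 0.13 at 24 h, -0.05 at 48 h and -0.18 between the tamoxifen arrays.

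The genes most like Fbxo32 over the 3 arrays were found by the distance between pairs of log2 ratios to oil, at 24 h and 48 h, among 10738 genes with no reading at the floor. The nearest was Art5, an ADP-ribosyltransferase of muscle, at a distance of 0.49 in log2, which read 199, 52.2 and 34.6. Sdc4, a heparan sulphate proteoglycan, followed at 0.74, but its other kept probe set was at 0.42 and 0.02. Lrrc2 at 0.81 read 1174, 341 and 263, with its other kept probe set also lower, at -1.86 and -1.82. Hal, histidine ammonia-lyase, and Slc15a2, a peptide transporter, came next at 1.08 and 1.11. For Trim63 many genes lay close: Fv1, Cysltr1, Nudt16, Ankrd12 and Gna14 were within 0.12, and the brightest of the 5 on oil, Ankrd12, read 136. The other kept probe set of Nudt16 was at -0.49 and -0.57, and the 3 others of Ankrd12 ranged from -0.84 to 0.42 at 24 h; Fv1, Cysltr1 and Gna14 had no other. All these pairs share the oil array.

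The wider ubiquitin machinery was set beside the members in lists without them, each gene read on 1 probe set. Of 21 ubiquitin, E1 and E2 genes measured, none was 2-fold different from oil at 24 h or 48 h, and the medians were 0.29 and 0.17. Other kept probe sets were past 2-fold for 2 of these genes at 24 h (Uba6 and Ube2j2) and 1 at 48 h (Ube2e3). The furthest was Ube2n, the E2 with which TRAF6 builds signalling chains, at 220, 432 and 379 (0.98 and 0.79), with its other kept probe set at 0.77 and 0.06. Of 19 genes of the cullin core and neddylation, in which atrogin-1 works, none was called at 24 h and 1 was higher at 48 h. This was Cand2, a muscle exchange factor of cullin complexes, at 231, 313 and 505.5, 2.19-fold (its other kept probe set was at 0.29 in log2). Skp1, which links F-box proteins to the cullin, read 1209, 1263 and 886, and Cul1 335, 312 and 262. Another kept probe set of Cul5 was at -1.94 in log2 at 24 h, where its gene reading was at 0.47. The medians of that list were 0.06 and -0.0028. Of 19 deubiquitinases none was called against oil, although other kept probe sets of Usp47 at 24 h and of Usp9x and Uchl5 at 48 h were past 2-fold, with medians of 0.06 and 0.11; Otub1, the furthest, was at 0.41 and 0.83.

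Among 24 other ubiquitin ligases and ligase adaptors of muscle, none was lower at either time (2.48% and 2.71% of all genes were). In this list 1 gene was higher at 24 h (2.35% of all) and 3 at 48 h (3.72%). Genes within 2-fold on that reading had another kept probe set past it in 3 cases at 24 h (Itch, Nedd4l and Mul1) and 2 at 48 h (Nedd4l and Mul1). Klhl40, a sarcomere-stabilising cullin adaptor, read 307, 706 and 903 and was 2.30-fold and 2.94-fold higher. Its relative Klhl41 read 587, 771 and 2139, 3.64-fold higher at 48 h. Fbxw7, an F-box ligase of growth regulators such as Myc, read 146, 264 and 309.7, 2.12-fold higher at 48 h, with its other kept probe set at 0.93 and 0.94 in log2. Medians were 0.21 and 0.06.

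The remaining genes of the F-box and TRIM families were read in the same way. Of 37 other F-box genes none was lower at 24 h or 48 h, and 2 were higher at each time; other kept probe sets of Fbxo6 and Fbxo9 at 24 h and of Fbxo42 at 48 h were past 2-fold. Fbxo10 was 5.24-fold and 3.45-fold higher on a dim probe set (7.65, 40.1 and 26.4), Fbxl6 2.15-fold at 24 h (23.0, 49.6 and 23.3) and Fbxw7 at 48 h, as above. The Fbxo10 reading on oil was below the median of that array (15.16 before scaling). Its probe set passed the filter through the tamoxifen readings. Of 31 other TRIM genes, Trim21 (55.3 to 25.5) and Trim45 (31.6 to 15.2) were lower at 24 h and Trim30a (48.2 to 23.0) at 48 h. The other kept probe sets of Trim21 (-0.34 in log2 at 24 h) and Trim30a (-0.51 at 48 h) were within 2-fold. Among TRIM genes within 2-fold, other kept probe sets of Trim16, Trim37 and Trim41 were past it at 24 h. At 48 h those of Trim16 and Trim33 were. Trim35 was higher at both times (718, 1525 and 1918) and Trim7 at 48 h (58.9 to 206). Medians were 0.22 and -0.0027 for F-box genes and -0.04 and -0.12 for TRIM genes.

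**Figure D4:**
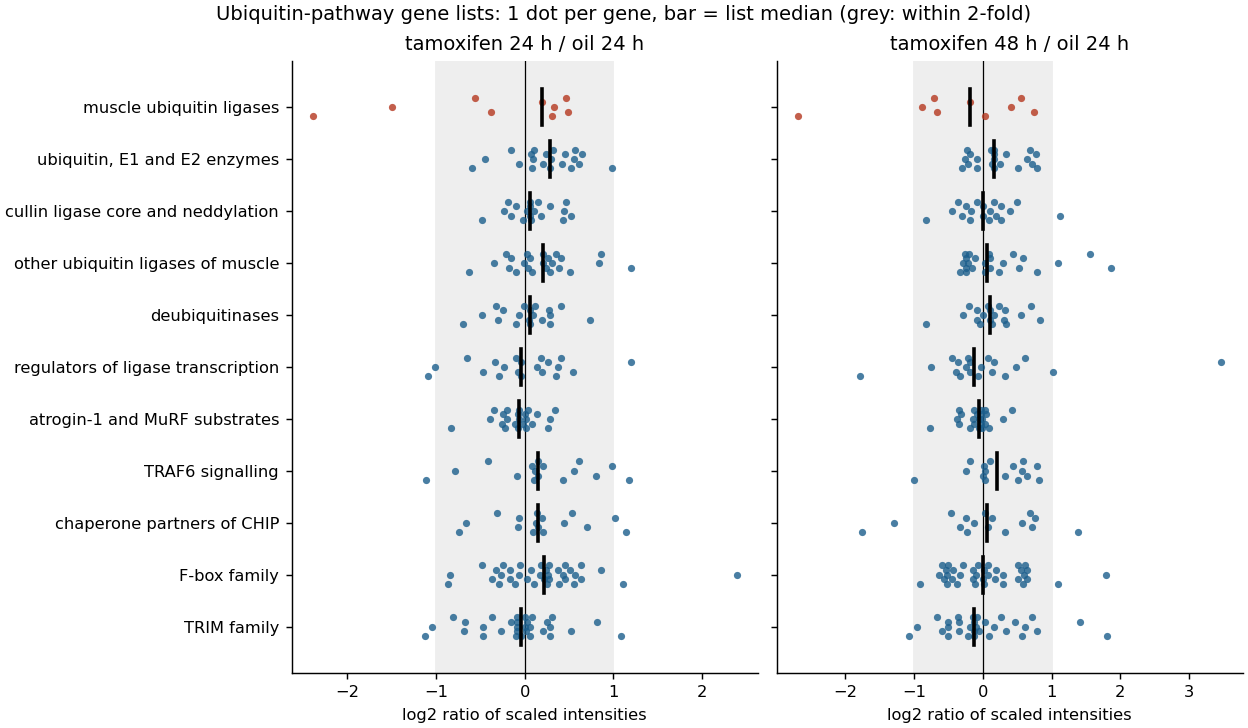
Log2 ratio to oil of the gene readings in each list, at tamoxifen 24 h (left) and 48 h (right); each dot is 1 gene, spread vertically for legibility, the black bar is the list median and the grey band is within 2-fold. The 9 muscle ubiquitin ligases (top, red) hold the lowest dot of the left panel and of the right panel, Fbxo32, while their median of 0.19 and -0.18 lies inside the band with those of all other lists.

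Of 20 measured regulators of ligase transcription, 2 were lower at 24 h and 1 at 48 h (2.48% and 2.71% of all genes were). In this list 1 gene was higher at 24 h (2.35% of all) and 2 at 48 h (3.72%). Klf15, a glucocorticoid-induced factor, read 253, 125 and 73.1 and was lower at both times (2.02-fold and 3.46-fold). Il6ra, a subunit of the interleukin-6 receptor, was lower at 24 h (30.9 to 14.5); its other kept probe set was at -1.84 at 24 h and -1.32 at 48 h. Tnfrsf12a, the TWEAK receptor, was 2.30-fold and 11.1-fold higher, and Myog, which encodes myogenin, an activator of both atrophy ligases after denervation, read 62.6, 59.2 and 126.8 (2.03-fold at 48 h, and just past 2-fold). The FoxO transcripts were within 2-fold: Foxo1 read 157, 228.5 and 154, and Foxo3 read 134, 96.7 and 98.45. This Foxo1 reading was at 0.54 in log2 at 24 h, but its other kept probe sets were at -0.19 and -0.07. At 48 h they were at -0.4 and -0.38. FoxO activity is set largely by phosphorylation of the protein, which arrays do not measure. Nr3c1, the glucocorticoid receptor, read 499, 407 and 389. The list medians were -0.04 and -0.12.

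The gene readings of the known substrates and partners of atrogin-1 and the MuRF proteins were within 2-fold for all 23 genes measured at both times, with medians of -0.07 and -0.05. Another kept probe set of Ttn (titin) was at -2.22 at 24 h, and one of Myh1, a fast myosin heavy chain, was more than 2-fold higher at 48 h. Eif3f read 1979, 1725 and 1567, and Myod1 182, 201 and 246. Of 16 TRAF6 signalling genes, Il1r1 was higher at 24 h and within 2-fold at 48 h (20.6, 46.6 and 17.45), and Irak1 was lower at 24 h (236, 109 and 118), although its other kept probe sets ranged from -0.76 to 0.30. Ikbkg was within 2-fold on its gene reading, but its other kept probe sets reached 1.15 at 24 h and 1.82 at 48 h. Those of Map3k7, likewise within 2-fold, reached 1.25 at 48 h. Of 16 chaperone partners of CHIP, Flnc (438 to 967) and Hspb8 (943 to 1914, 2.03-fold) were higher at 24 h. Their other kept probe sets were within 2-fold, at 0.79 for Flnc and 0.35 to 0.83 for Hspb8. Another of Ahsa1 was at -1.59. At 48 h Hspb8 (943 to 2472) was higher and Hspa1a (69.3 to 20.6) and Hspa1b (148 to 60.3) were lower. The other kept probe sets were at 1.14 and 1.15 for Hspb8 and -0.85 to -0.72 for Hspa1b. Flnc was within 2-fold at 48 h, with its other kept probe set at 1.11. Stub1 itself was within 2-fold. Medians were 0.15 and 0.21 for TRAF6 signalling and 0.14 and 0.05 for the chaperones.

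In whole muscle, fewer cells of a type and less RNA per cell cannot be told apart. The labelled tissue matched its markers: all 10 skeletal muscle markers were kept, none ranked below 99.7%, and their summed scaled intensity was 87321, 85302 and 87889 on the oil, 24 h and 48 h arrays. Sums for other cell types differed between the arrays. Neutrophil markers (4 of 5 with a probe set) summed to 180.3, 106.6 and 69.4, and smooth muscle and pericyte markers (4 of 4) to 4234, 3132 and 3092. Macrophage markers (8 of 8) summed to 1900, 1808 and 1517, endothelial markers (5 of 5) to 667, 734 and 555.5, and adipocyte markers (3 of 5) to 605, 768 and 521. Fibroblast and tendon markers (6 of 6) summed to 10887, 9958 and 10081, Schwann cell markers (3 of 5) to 2251, 2203 and 2036, satellite cell markers (4 of 4) to 123, 183 and 207, and red blood cell markers (2 of 4) to 39.8, 36.9 and 38.6. The satellite cell sum and median differed: the median log2 ratio to oil of the 4 markers was 0.05 at 24 h and -0.4 at 48 h. On the 48 h array 1 of these 4 read under the floor. For the 3 adipocyte markers the median log2 ratio to oil was 1.1 at 24 h and 0.0 at 48 h. Of these 3, 1 read under the floor on the oil array and 1 on the 48 h array. Under the floor too were 1 neutrophil marker on the 24 h array and 1 red blood cell marker on each array. The markers Mpo, Lep, Calcr and Hba-a1 did not pass the filter. The part of any of these in the Fbxo32 and Trim63 readings was not tested.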

How the data were processed

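Gastrocnemius RNA was measured on 3 one-colour arrays. The authors deposited linear intensities, with 1 value for each probe set on each array. The steps of summary, background correction and scaling were not given in the sources used here. The number of arrays limits the precision. The table's 45101 rows included 64 control probe sets, which were dropped. In the platform annotation 34945 probe sets had 1 gene, 932 had several and 9160 were not listed; symbols, matched by Entrez identifier to the RefSeq table of GRCm38.p6, were unchanged. Probe sets with a mean percentile rank of 0.5 or more were kept (21804), arrays were scaled to one median over them (factors 1.01, 0.944 and 1.05 for oil, tamoxifen 24 h and 48 h), a floor at the 25th percentile (4.05) was set and log2 taken. Each of 11092 genes was read on the kept probe set that ranked highest on average. All probe sets of the members were given. Lists were summarised by up to 3 members of largest change and up to 5 past 2-fold. Some further genes (Skp1, Cul1, Foxo1, Foxo3, Nr3c1, Eif3f, Myod1, Ttn, Myh1, Uba6, Ube2j2, Ube2e3, Usp47, Usp9x, Uchl5, Itch, Nedd4l, Mul1, Fbxo6, Fbxo9, Fbxo42, Clip1, Tspan8, Fmo2, Ecrg4, Cul5, Ikbkg, Map3k7, Ahsa1, Trim16, Trim37, Trim41, Trim33) were added after their values were seen, for their role, a deviating probe set or to complete a count. The 5 most alike genes were taken by distance. The members and lists were chosen with earlier results of these data known. The calculation (Python 3.11.15, pandas 2.3.3, numpy 2.4.6) was tested on simulated data. Alternatives changed scaling, floor, filter, probe set and fold.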

Additional observations from a re-analysis of the deposited data

How the results depend on the processing

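Under 11 alternatives (unscaled, quantile or 75th-percentile scaling, a floor at the 50th percentile or none, rank filters of 0.25, 0.75 or none, the median over kept probe sets, the probe set of second highest rank, and a 1.5-fold rule), 62 of 66 counts of called members stayed within 1.5 times. On the second-ranked probe set, which 7 members have, 1 (Fbxo32) was lower at 24 h, against 4.86% of 5001 genes; Trim63 has no second probe set. With the 1.5-fold rule 4 members (Fbxo32, Trim63, Fbxo30 and Fbxo31) were lower at 48 h, against 10.7% of all genes, 1 (Fbxo21) was higher at 48 h, against 11.7%, and 1 (Trim63) was higher at 48 h than at 24 h, against 6.91%; 1 of 9 is near both shares. The log2 ratio of Fbxo32 lay between -4.10 and -2.10 at 24 h and between -3.91 and -2.61 at 48 h, and that of Trim63 between -1.57 and -1.21, then between -0.94 and -0.80. No value called by the 2-fold rule changed sign. On the second-ranked probe set Fbxo30 went from -0.71 to 0.15 and Fbxo21 from 0.74 to -0.41 at 48 h. Of 261 member ratios, 10 moved by more than the spread between probe sets of one gene (SD 0.49, 0.41 and 0.44 in log2 for 24 h against oil, 48 h against oil and 48 h against 24 h), all by reading another probe set of Fbxo32, Fbxo30 or Fbxo21. No paired analysis was possible because each group is 1 array. Signal over background limits Traf6.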
